A study of Mus musculus with 10 samples.

Results

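Single-cell RNA sequencing of the embryonic mouse cortex was used here to follow 9 genes of the proneural and intermediate progenitor program: Eomes, Neurog1, Neurog2, Insm1, Btbd17, Neurod1, Neurod2, Neurod4 and Neurod6. They were taken by name from the 31053 genes of the count matrices, and their values were read per embryo, over all cells and in classes of cells drawn from marker genes. The 9 genes were chosen with earlier results of these data known, so counts among them are a description. The study asked how loss of 1 or both copies of Gatad2b, a subunit of the nucleosome remodeling and deacetylase complex, affects the developing cortex. Whole cortices of C57BL/6N-A tm1Brd embryos at embryonic stage E16.5 were dissociated with papain, and each embryo gave 1 droplet 3′ library. There were 3 wild-type embryos (WT), 4 embryos heterozygous for the trap allele Gatad2b tm1a(EUCOMM)Hmgu (Gatad2b stop/+, Het) and 3 homozygous embryos (Gatad2b stop/stop, KO). All cells of a mutant embryo carried the allele, and 3′ counts do not show which protein was made.

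In the developing cortex, radial glia divide at the ventricle and give rise to intermediate progenitors, which settle in the subventricular zone and divide again into neurons. Neurog1 and Neurog2 are basic helix-loop-helix (bHLH) factors that start neuronal differentiation together with E protein partners, and Id proteins and Notch signaling hold them back. Eomes, a T-box factor also called Tbr2, marks intermediate progenitors, and the zinc finger factor Insm1 promotes their formation. Neurod1 and Neurod4 are bHLH factors switched on as progenitors leave the cycle, and Neurod2 and Neurod6 are bHLH factors that persist in postmitotic pyramidal neurons.

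The bHLH members bind the E-box, CANNTG, and several members lie downstream of one another, so the stretches before the starts of the members that define the progenitor and the pyramidal neuron stage are shown with each E-box in capitals. The sequences are the 250 bases before the RefSeq start on the strand of the gene (build GRCm38.p6). RefSeq promoters were matched for 8 of the 9 genes, and Insm1 had no entry.
Eomes, chr9:118477939-118478188, + strand: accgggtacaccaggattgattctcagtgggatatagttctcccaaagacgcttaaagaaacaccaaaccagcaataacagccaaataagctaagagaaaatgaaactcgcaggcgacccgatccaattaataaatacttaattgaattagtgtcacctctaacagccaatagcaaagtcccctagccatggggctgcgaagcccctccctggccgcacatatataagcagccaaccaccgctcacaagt
Neurog1, chr13:56252181-56252430, - strand: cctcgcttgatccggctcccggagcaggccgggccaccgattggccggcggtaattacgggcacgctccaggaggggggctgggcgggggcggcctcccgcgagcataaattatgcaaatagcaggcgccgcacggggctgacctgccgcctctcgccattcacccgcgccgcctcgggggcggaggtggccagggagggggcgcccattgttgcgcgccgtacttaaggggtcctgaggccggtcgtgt
Neurog2, chr3:127632886-127633135, + strand: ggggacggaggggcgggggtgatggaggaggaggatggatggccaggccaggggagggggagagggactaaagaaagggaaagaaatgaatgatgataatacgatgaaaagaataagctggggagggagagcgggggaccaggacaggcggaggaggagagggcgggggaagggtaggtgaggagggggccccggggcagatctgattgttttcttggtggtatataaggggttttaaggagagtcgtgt
Neurod2, chr11:98329646-98329895, - strand: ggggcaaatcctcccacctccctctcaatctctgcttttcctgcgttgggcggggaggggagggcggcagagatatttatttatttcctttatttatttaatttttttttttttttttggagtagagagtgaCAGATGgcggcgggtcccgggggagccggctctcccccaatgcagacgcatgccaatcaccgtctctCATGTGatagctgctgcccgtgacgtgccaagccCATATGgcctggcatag
Neurod6, chr6:55681264-55681513, - strand: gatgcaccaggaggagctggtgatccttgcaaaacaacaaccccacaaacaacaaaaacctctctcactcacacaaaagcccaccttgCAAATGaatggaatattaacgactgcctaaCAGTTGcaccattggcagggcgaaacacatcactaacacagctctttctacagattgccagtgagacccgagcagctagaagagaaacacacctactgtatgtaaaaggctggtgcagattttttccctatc
No CANNTG lay in the windows of Eomes, Neurog1 and Neurog2, nor in those of Btbd17 and of both Neurod4 starts. The Neurod2 window held 3, of which 1 was CAGATG, the Neurod6 window held 2 and the Neurod1 window held 1. CANNTG reads the same on both strands and lay in 66.2% of 32851 promoters of that length, whereas CAGATG on either strand lay in 14.4%. The T-box motif AGGTGTGA, searched on both strands, lay in 1.12% of them. A match is a description of the letters, and no binding was measured.

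In GENCODE on GRCm38, the genes lie at chr9:118478212-118486132 (Eomes), chr13:56250478-56252163 (Neurog1), chr3:127633135-127635631 (Neurog2), chr2:146221921-146225020 (Insm1, 1 exon), chr11:114791217-114795945 (Btbd17), chr2:79452521-79456751 (Neurod1), chr11:98325415-98329648 (Neurod2), chr10:130268152-130280240 (Neurod4) and chr6:55677822-55681263 (Neurod6). Eomes overlaps the antisense gene Gm33460. Neurod1 overlaps Cerkl on its own strand and Gm26755 on the opposite strand, so part of a Neurod1 count could belong to a neighbour.

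Of 80071 deposited barcodes, 65779 cells passed the study's filter of at least 1000 UMIs (unique molecular identifiers, each standing for 1 captured RNA molecule) and at most 10% mitochondrial UMIs, with 5147 to 8103 cells and 82872641 to 123737385 UMIs per embryo. The study's text states cell numbers that differ from this one, in its methods a larger and in its results a smaller one, so the deposited matrices may differ from the set analysed there. The median UMIs per cell ranged from 10795 to 17077.5. Barcode strings kept in 2 or more libraries belonged to 993 cells, with at most 19 strings shared by a pair of libraries. In the library of Het embryo 3, 340 cells (6.06%) were endothelial-like, against 11 to 58 in each of the other embryos, and 12.7% of its Eomes-detected cells lay in that class. So did 10.2% of its Neurod1-detected and 9.55% of its Neurod6-detected cells, against at most 0.288% and 0.404% in any WT embryo. The name endothelial-like therefore need not hold for these cells. They are missing from the SVZ-like and neuron class values of this embryo. This library enters all Het values. Gatad2b lay at 131 to 139 CPM (counts scaled to a common library size) in the WT embryos, 89.8 to 95.7 in those labelled Het and 50.9 to 57.3 in those labelled KO, in the order of the labels. Library names carried 1 of 2 prefixes: the 3 WT libraries and the library of Het embryo 4 shared the first, and the other 6 libraries shared the second. KO and WT embryos therefore never shared a prefix, and genotype and prefix cannot be told apart in that comparison. KO was for this reason also compared with Het embryos 1 to 3, within the second prefix, and Het embryo 4 is set beside WT, within the first. The median mitochondrial percent was 3.60 to 3.97 in libraries of the first prefix and 4.31 to 4.66 in those of the second. Cluster 14, an unnamed cluster with few UMIs per cell, held 3.26 to 4.55% and 0.546 to 1.94% of their cells. The part of these differences in the values was not tested. The comparisons share embryos and are given side by side. The study describes Het and WT embryos as littermates, but the sources used here do not assign each embryo to a litter, so p-values measure the spread between these embryos.

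The 9 genes were first placed in the WT cortex, as a description, by the CPM of the summed UMIs of each class of cells (mean ± SD, 3 embryos, without TMM scaling, for comparison between classes of 1 gene at a time). The classes were drawn by clustering on variable genes from which the 9 genes had been removed, and named "X-like" from marker lists or left with a number. Eomes was highest in SVZ-like (subventricular zone) cells at 661 ± 12.4 CPM, then in mitotic-like cells (289 ± 44.6), the unnamed cluster 3 (162 ± 26.5) and radial glia-like cells (116 ± 35.2), of which the last 2 overlapped, and it stood at 2.50 ± 0.316 in layer II-IV-like neurons and 2.03 ± 1.12 in erythroid-like cells. Neurog2 followed the same first steps, with 468 ± 34.5 in SVZ-like, 256 ± 26.8 in mitotic-like and 110 ± 34.1 in radial glia-like cells, and 17.3 ± 0.599 in layer II-IV-like neurons. Neurog1 lay at 3.24 ± 1.07 in SVZ-like and 3.15 ± 2.25 in mitotic-like cells, which overlapped, and had no UMI in cluster 3 of any WT embryo. Both neurogenins thus had their highest WT means in the SVZ-like class. In the class as drawn here, 59.7 to 74.1% of the WT cells per embryo held a Prox1 or Tesc UMI. With the clusters redrawn as described further on, Prox1 was detected in 10.8, 10.4 and 9.61% of WT cells of the class, against 40.0%. Eomes was then detected in 81.6, 75.8 and 82.3%, against 60.4%, all at a common depth per cell. The WT placement of all 9 genes, here and below, is given only for the classes as first drawn.

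Insm1 had another order: cluster 13, an unnamed cluster, and mitotic-like cells were highest and overlapped (285 ± 25.6 and 280 ± 42.8 CPM), followed by cluster 3 (222 ± 12.3), and SVZ-like cells (98.8 ± 23.3) overlapped layer II-IV-like neurons (80.9 ± 7.45). Btbd17 stood at 144 ± 9.18 in SVZ-like cells and between 34.9 and 36.9 on average in the next 3 classes, radial glia-like, layer I-like and mitotic-like cells, which overlapped. Neurod4 was found mainly in SVZ-like (44.9 ± 4.00) and mitotic-like cells (20.3 ± 7.42), with 2.51 ± 0.815 in cluster 3. Btbd17 and Neurod4 therefore had their highest WT means in the SVZ-like class, and Insm1 did not.

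Neurod1 was highest in SVZ-like cells (808 ± 111 CPM) and then in cluster 3 (365 ± 28.8), layer V-VI-like (140 ± 37.6) and mitotic-like cells (120 ± 38.3), and reached 71.7 ± 8.54 in layer II-IV-like neurons. Neurod2 had its highest means in cluster 3 (711 ± 28.6) and layer II-IV-like neurons (686 ± 18.1), and Neurod6 in layer V-VI-like (1526 ± 112) and layer II-IV-like neurons (1512 ± 71.6), each pair overlapping. In SVZ-like cells Neurod2 stood at 219 ± 26.8 and Neurod6 at 477 ± 98.0, so the 2 pyramidal neuron genes were lower there than in the neuron classes named.

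Over all cells, 6 of the 9 genes were higher in KO than in WT and none was lower: Eomes, Neurog1, Neurog2, Insm1, Btbd17 and Neurod1 rose, whereas Neurod2, Neurod4 and Neurod6 did not pass the test. UMIs were summed per embryo and tested with edgeR over all genes, and calls required a Benjamini-Hochberg adjusted p under 0.05 together with a log2 fold change beyond 0.25 in either direction. By this rule 24.5% of 17647 tested genes were called in KO vs WT, so a call alone was common, and the median log2 fold change was 0.51 for the 9 genes and -0.01 for all genes. A fit with the library prefix as a covariate was also run for the comparisons with WT. It covered all cells, cluster 3 and the SVZ-like, layer II-IV-like, layer V-VI-like, radial glia-like and mitotic-like classes, and no other class. Its prefix term rests on Het embryo 4 against Het embryos 1 to 3 alone, since no other group holds both prefixes, so a call held or lost under it depends on that 1 library. In this fit, Neurog1, Neurog2 and Neurod1 were still called in KO vs WT, and Eomes (0.83, edgeR adjusted p = 0.062), Btbd17 (0.44, edgeR adjusted p = 0.171) and Insm1 (0.39, edgeR adjusted p = 0.111) were not. Of these 3 log2 fold changes, that of Insm1 moved the most. In Het vs WT, 3 of the 9 genes rose (Eomes, Insm1 and Btbd17), beside 2.98% of all genes, with a median of 0.36. These 3 calls were all lost with the prefix as a covariate, with the WT and Het embryos fitted alone, and without WT embryo 1 or 2, Het embryo 1 or 3, or KO embryo 1 or 3. With the prefix the log2 fold changes were 0.56 for Eomes, 0.36 for Btbd17 and 0.18 for Insm1. In KO vs Het within the second prefix, which needs no such term, 2 of the 9 rose (Neurog1 and Neurod1), beside 6.14% of all genes, with a median of 0.21, and neither was called without Het embryo 3 or KO embryo 3. In such sums, more cells of a type and more RNA per cell cannot be told apart.

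Among the progenitor factors, Eomes stood at 40.1, 44.6 and 44.9 CPM in the WT embryos, at 84.9, 55.5, 61.1 and 63.8 in Het embryos 1 to 4 and at 86.3, 67.7 and 88.9 in the KO embryos. Every mutant embryo lay above every WT embryo, including Het embryo 4, which shares the prefix of the WT libraries, while Het embryo 1 lay among the KO embryos. The log2 fold change of Eomes was 0.91 ± 0.14 (SE) in KO vs WT (edgeR adjusted p = 0.000785) and 0.62 ± 0.13 in Het vs WT (edgeR adjusted p = 0.0351).

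Insm1 was measured at 85.7, 78.1 and 74.7 CPM in WT, 127, 104, 110 and 90.1 in Het embryos 1 to 4, and 122, 142 and 131 in KO. The groups of mutant embryos did not overlap WT, and Het embryo 4 was the mutant embryo closest to WT. Its log2 fold change was 0.73 ± 0.11 in KO vs WT (edgeR adjusted p = 0.000492) and 0.44 ± 0.099 in Het vs WT (edgeR adjusted p = 0.0389).

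The proneural factor Neurog2 stood at 38.4, 40.3 and 40.1 CPM in WT, 58.4, 45.3, 41.7 and 57.6 in Het embryos 1 to 4, and 63.3, 53.8 and 62.2 in KO. KO lay above WT without overlap, and the Het embryos spread from just above WT to the KO range. Neurog2 rose by 0.59 ± 0.12 (log2) in KO vs WT (edgeR adjusted p = 0.00271), and its 0.36 in Het vs WT did not pass (edgeR adjusted p = 0.0737). Its paralog Neurog1 was close to the detection limit, with maxima of 0.38 CPM among WT, 0.50 among Het and 0.77 among KO embryos. The lowest KO embryo (0.61) still exceeded the highest Het embryo. The fitted log2 change of Neurog1 was 1.40 ± 0.31 in KO vs WT (edgeR adjusted p = 0.00485) and 1.03 ± 0.23 in KO vs Het (edgeR adjusted p = 0.0231).

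Btbd17, a BTB domain gene, stood at 9.69, 11.7 and 13.7 CPM in WT, 16.3, 16.7, 14.0 and 14.9 in Het and 17.1, 15.7 and 17.0 in KO, with no overlap between WT and the mutants. It rose by 0.51 ± 0.11 (log2) in KO vs WT (edgeR adjusted p = 0.00396) and by 0.41 ± 0.10 in Het vs WT (edgeR adjusted p = 0.0451). Neurod1 stood at 96.7, 123 and 120 CPM in WT, 127, 124, 122 and 136 in Het embryos 1 to 4, and 164, 137 and 161 in KO. Here the KO embryos lay above all others, and Het overlapped WT. The log2 fold change of Neurod1 was 0.44 ± 0.090 in KO vs WT (edgeR adjusted p = 0.00338) and 0.31 ± 0.062 in KO vs Het (edgeR adjusted p = 0.0164).

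The 3 remaining genes overlapped between WT and KO. Neurod2 ranged from 391 to 451 CPM in WT and from 424 to 433 in KO (log2 fold change 0.05, edgeR adjusted p = 0.551), and Neurod6 from 867 to 1085 in WT and from 1062 to 1114 in KO (0.14, edgeR adjusted p = 0.165). Neurod4 stood at 2.30, 2.55 and 2.06 CPM in WT and at 1.88, 1.56 and 2.21 in KO (-0.29, edgeR adjusted p = 0.165). Neurod2, Neurod4 and Neurod6 also missed the threshold in the other comparisons.

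**Figure D1:**
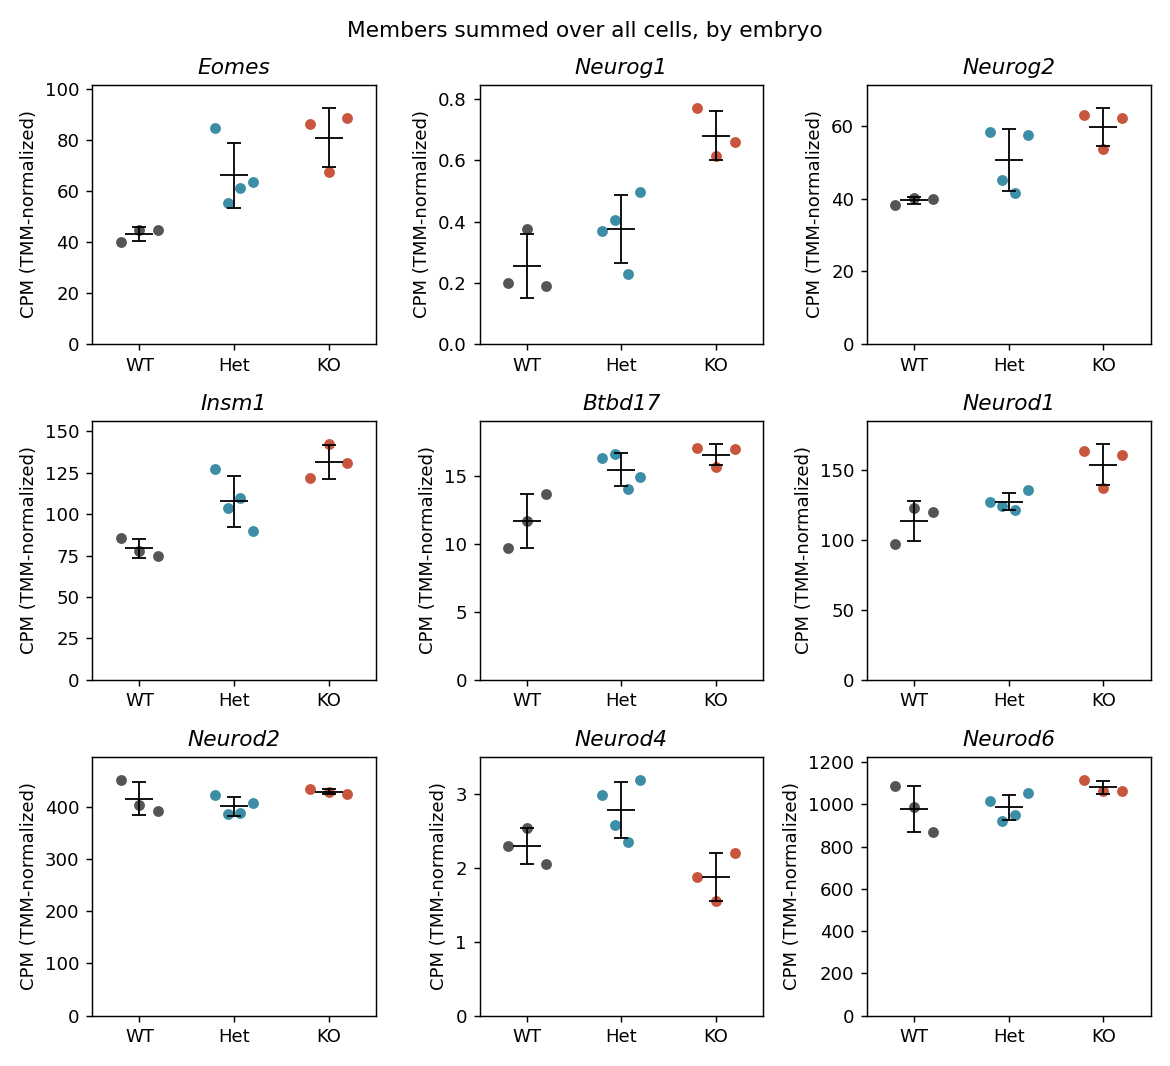
Each panel plots 1 gene in CPM (TMM-normalized, vertical axis from 0) summed over all cells, with 1 point per embryo in WT, Het and KO, and the group mean with its SD as a bar. KO points lie above all WT points for Eomes, Neurog1, Neurog2, Insm1, Btbd17 and Neurod1, for example 67.7 to 88.9 against 40.1 to 44.9 CPM for Eomes.

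To describe in how many cells a gene was detected and how much of it those cells held, every cell was thinned to 3000 UMIs and the share of cells with at least 1 UMI of the gene was set beside the mean UMIs among those detected cells. Cells under 3000 UMIs were left out, 12.9% of WT, 6.08% of Het and 4.75% of KO cells. For the 5 called genes other than Neurog1, the log2 difference between KO and WT was larger in the share of cells than in the level. A detected share also rises when each cell holds more of an RNA, so it does not count cells of a type. With 3 embryos against 3 the smallest two-sided exact permutation p is 0.1, and with 3 against 4 it is 0.0571, so the shares are given with their ranges.

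Eomes was detected in 4.62, 5.05 and 5.09% of WT cells, 7.58, 5.03, 6.02 and 6.55% of the cells of Het embryos 1 to 4, and 7.62, 6.26 and 8.65% of KO cells. The mean shares were 4.92% ± 0.259 (SD, n = 3), 6.30% ± 1.06 (n = 4) and 7.51% ± 1.20 (n = 3), and unthinned 7.71%, 9.67% and 10.8%. KO did not overlap WT, at a difference of 2.60 percentage points (two-sided exact permutation p = 0.1, the smallest possible), which was 1.44 points with each class weighted equally, while Het did, at 1.38 points (exact permutation p = 0.171). Among detected cells, Eomes stood at 2.51 ± 0.110 UMIs in WT, 2.83 ± 0.108 in Het and 2.99 ± 0.0674 in KO, and neither mutant group overlapped WT. On the log2 scale the share contributed 0.60 and the level 0.25 to the KO difference.

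Insm1 was detected in 18.2% ± 1.15 of WT cells, 21.9% ± 2.41 of Het cells and 25.9% ± 1.04 of KO cells (unthinned 39.3%, 47.3% and 53.6%), and its level among detected cells was 1.34, 1.45 and 1.49 UMIs. Both quantities lay above WT in every KO embryo, with log2 parts of 0.51 (share) and 0.15 (level). Neurog2 went from 6.36% ± 0.0992 of WT cells to 8.59% ± 0.923 of KO cells (unthinned 16.4% and 22.6%) and from 1.79 to 1.94 UMIs per detected cell, again without overlap in either.

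For Neurod1 and Btbd17 the shares were apart in KO and the levels overlapped. Neurod1 was detected in 16.1% ± 0.321 of WT, 18.0% ± 1.05 of Het and 21.5% ± 1.25 of KO cells (unthinned 30.5%, 35.5% and 40.3%), while the UMIs per detected cell were 2.02 in WT and 1.99 in KO with overlapping embryos. Btbd17 was detected in 2.95% ± 0.615 of WT and 3.99% ± 0.147 of KO cells (unthinned 8.23% and 12.2%), with 1.21 UMIs per detected cell in WT and 1.20 in KO. Neurog1 was seen in 0.0508% of WT and 0.168% of KO cells (unthinned 0.246% and 0.757%), always as single UMIs in those groups after thinning.

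Neurod6 moved in opposite directions in the 2 quantities. It was detected in 64.6% ± 4.02 of WT and 60.6% ± 1.24 of KO cells, without overlap, and detected cells held 4.09 ± 0.213 UMIs in WT and 4.47 ± 0.117 in KO, also without overlap. The unthinned shares, 71.5% and 67.3%, overlapped. Neurod2 (53.0% and 50.9%) and Neurod4 (0.532% and 0.442%) overlapped between WT and KO. In all, the share was higher in every KO than in every WT embryo for 6 of the 9 genes, beside 17.5% of all tested genes, and lower for 1, Neurod6, beside 22.6%. In Het it was higher without overlap for 2, Neurog2 and Neurod1, beside 5.84%.

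As a measure of free RNA in the droplets, the thinned shares were also read in erythroid-like cells, which should lack these genes. There Eomes was detected in 0 to 1.38% of cells per embryo, Insm1 in 0 to 2.60%, Neurod1 in 0 to 2.24% and Neurog2 in 0 to 1.65%, and Btbd17, Neurog1 and Neurod4 in none. Neurod2 and Neurod6 reached means of 5.71% and 13.8% in WT, 4.29% and 10.5% in Het, and 2.26% and 5.81% in KO erythroid-like cells. These shares were lower in KO than in WT by the means, without overlap for Neurod6 and with overlap for Neurod2. The median depth of erythroid-like cells was 7523.5 UMIs in WT, 9863.5 in Het and 11202 in KO, against 12227, 14315 and 15345 over all cells, and less free RNA and deeper cells cannot be told apart in these shares.

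The classes of cells themselves differed in size between the groups. SVZ-like cells were 2.49% ± 0.488 of WT, 3.35% ± 0.614 of Het and 4.10% ± 0.573 of KO cells, and cluster 3, defined further on, was 6.10% ± 0.901, 7.41% ± 1.27 and 9.47% ± 0.211. These sizes depend on the clustering and are given as a description. The clusters were also redrawn at resolution 0.8, without integration, or with the 9 genes kept among the variable genes. SVZ-like cells were then 2.58, 2.77 and 2.78% of WT and 5.57, 6.37 and 5.85% of KO cells, without overlap. Eomes was detected at 3000 UMIs in 81.6, 75.8 and 82.3% of these cells in WT. In KO it was detected in 84.5, 78.1 and 85.2%, with overlap. With the UMIs at 3000 per cell divided over the classes as first drawn, the KO vs WT difference was split into a part from the sizes of the classes and a part from the level within them. Insm1 went from 243 to 386 UMIs per 1000 cells, and 17.5% of that difference came from class sizes. The part from class sizes was 55.9% for Eomes, 62.8% for Neurog2, 84.2% for Btbd17, 48.2% for Neurod1 and 26.6% for Neurog1. By this split Insm1 differed mainly within classes and Btbd17 mainly through their sizes. The split uses group means under 1 clustering, without a spread, and was not repeated with redrawn clusters.

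**Figure D2:**
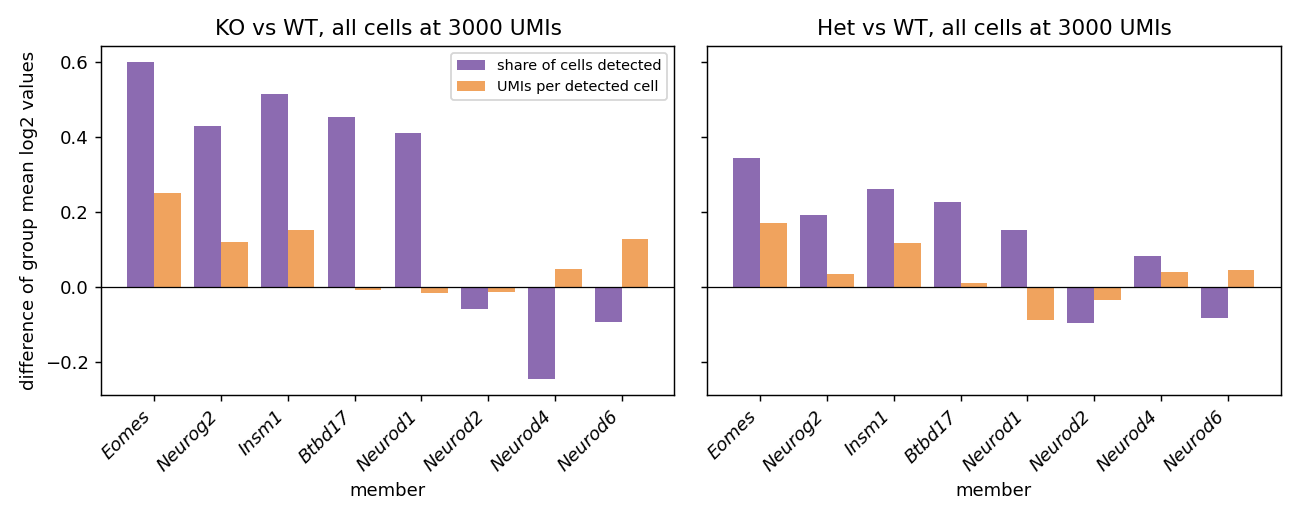
Bars give, for each gene except Neurog1, the difference of the group means of log2 values over all cells at 3000 UMIs per cell, KO minus WT at the left and Het minus WT at the right, for the share of cells detected (purple) and the UMIs per detected cell (orange). In KO the share part exceeds the level part for Eomes (0.60 and 0.25), Neurog2 (0.43 and 0.12), Insm1 (0.51 and 0.15), Btbd17 (0.45 and -0.01) and Neurod1 (0.41 and -0.02).

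Detection of the genes in the same cell was counted at the same depth. Of the cells with Eomes, 46.0% of those of WT also held Neurog2, against 55.7% of those of KO, and 35.5% against 49.5% also held Insm1. Both differences separated the groups (exact permutation p = 0.1, the smallest possible). The shares of all cells with Neurog2 or Insm1, given above, also rose in KO, and co-detection beyond those shares was not tested. Neurod4 was found in 8.88% of the Eomes-detected cells of WT and 5.35% of those of KO, again without overlap. Neurod1 was found in 50.6% and 51.1% of them, with overlap (exact permutation p = 1.0). Of the cells with Neurod1, 27.1% in WT and 39.7% in KO held Insm1, and 15.5% and 17.9% held Eomes, with overlap in the latter (exact permutation p = 0.4). Within the SVZ-like class described next, Eomes was found in 57.0% of the Neurod1-detected cells of WT and 77.9% of those of KO, without overlap. In the whole of that class it was found in 60.4% of WT and 82.5% of KO cells. The share of Eomes-detected cells with Insm1 was there 34.4% in WT and 45.7% in KO, with overlap (exact permutation p = 0.2), and that with Neurod1 54.6% and 43.8%, also with overlap (exact permutation p = 0.2).

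The SVZ-like class was a single cluster. Named after 9 detected subventricular zone markers, it held 2138 cells, 573 of WT, 855 of Het and 710 of KO embryos. Its leading genes were Mfap4, Tac2, Prox1, Tesc and Rmst, of which Mfap4 is on the marker list. Prox1 and Tesc themselves fell in KO in this class (log2 fold changes -1.35 and -1.33), and 59.7 to 74.1% of its WT cells, 57.6 to 67.2% of its Het cells and 44.3 to 50% of its KO cells held a UMI of either gene. When the clusters were redrawn at resolution 0.8, without integration or with the 9 genes kept, Prox1 was at -0.33, -0.38 and -0.22, not called. Tesc was at -1.36 (called), -0.97 and -0.49 (not called). Fewer cells of a kind that holds these genes and less of their RNA in the same cells cannot be told apart here. The fold changes of Eomes, Insm1, Neurod1, Neurog2, Neurog1 and Neurod4 in KO vs WT are therefore also given for the cells without a Prox1 or Tesc UMI, a split that uses genes which themselves fell in KO. With the library prefix as a covariate, Eomes, Neurog1, Neurog2 and Insm1 were still called in this class. Of the calls lost in that fit, Neurod1 kept its value (-0.56, edgeR adjusted p = 0.0901), Neurod2 went to 0.19 and Neurod4 to -0.086.

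Within SVZ-like cells, 5 of the 9 genes rose in KO vs WT (Eomes, Neurog1, Neurog2, Insm1 and Neurod2) and 2 fell (Neurod1 and Neurod4), beside 25.1% of 11731 tested genes called, with medians of 0.28 for the 9 genes and -0.01 for all genes. In Het vs WT 2 rose (Eomes and Insm1), beside 2.69%. With the library prefix as a covariate neither was called (Insm1 0.62 and Eomes 0.31), and Neurog2 (0.51) was called instead. In KO vs Het 4 rose and 1, Neurod4, fell, beside 8.26%. Without the cells that held Prox1 or Tesc UMIs, 1 of the 9 genes, Insm1, was called in KO vs WT, beside 6.13%.

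Eomes in SVZ-like cells was at 652, 658 and 634 CPM in WT, 931, 803, 968 and 804 in Het embryos 1 to 4, and 1094, 995 and 1093 in KO, 3 groups without overlap. The log2 fold change was 0.71 ± 0.075 in KO vs WT (edgeR adjusted p = 7.02e-06) and 0.43 ± 0.070 in Het vs WT (edgeR adjusted p = 0.00656), and its 0.24 in KO vs Het did not pass (edgeR adjusted p = 0.0532). At 3000 UMIs, Eomes was detected in 60.4% ± 1.75 of WT, 71.0% ± 4.44 of Het and 82.5% ± 2.04 of KO cells of the class (unthinned 72.7%, 81.8% and 91.2%). Among the cells without Prox1 or Tesc the thinned shares overlapped, at 76.6 to 93.0% in WT and 87.9 to 92.2% in KO (exact permutation p = 0.9). The log2 fold change of these cells was 0.10 (edgeR adjusted p = 0.625), and 0.19 in Het vs WT (edgeR adjusted p = 0.460). The unthinned shares of those cells ran from 89.1 to 93.2% in WT and from 96.8 to 97.8% in KO, and those of the cells with either gene from 59.8 to 68.6% and from 80.8 to 89.6%. Outside the Prox1 or Tesc cells, the KO and WT embryos were thus apart in unthinned detection, which is near its ceiling and moves with depth, and overlapped at matched depth.

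Insm1 was at 114, 106 and 70.6 CPM in WT, 179, 145, 196 and 148 in Het and 227, 237 and 228 in KO. All 3 groups were apart, and the 3 KO embryos differed little among themselves. Insm1 rose by 1.26 ± 0.14 (log2) in KO vs WT (edgeR adjusted p = 1.36e-05), by 0.79 ± 0.14 in Het vs WT (edgeR adjusted p = 0.00829) and by 0.41 ± 0.092 in KO vs Het (edgeR adjusted p = 0.0117). Its share of detected cells was 23.4% ± 4.60, 34.1% ± 3.30 and 41.7% ± 4.14 in WT, Het and KO (unthinned 58.8%, 70.9% and 85.8%), with overlapping levels among detected cells. Without the Prox1 or Tesc cells Insm1 still rose in KO, by 0.63 ± 0.14 (edgeR adjusted p = 0.00622), its 0.48 in Het vs WT did not pass (edgeR adjusted p = 0.180), and its thinned shares, 40.5% in WT and 48.9% in KO, overlapped.

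Neurod1 in this drawing of the SVZ-like class went the other way from its sum over all cells, with 673, 876 and 825 CPM in WT, 510, 634, 725 and 622 in Het and 578, 484 and 546 in KO. The log2 fold change in KO vs WT was -0.56 ± 0.11 (edgeR adjusted p = 0.00176). When the clusters were redrawn in 3 other ways, its value turned to 0.13, 0.15 and 0.21, and none of these was called. Both its share (57.7% ± 4.95 in WT, 46.3% ± 3.79 in KO) and its UMIs per detected cell (4.08 and 3.00) were lower in every KO than in every WT embryo, while the unthinned shares were 72.1% and 69.4%. Without the Prox1 or Tesc cells its value was -0.24 (edgeR adjusted p = 0.518), and its thinned shares ran from 49.1 to 50.9% in WT and from 34.1 to 48.1% in KO, without overlap.

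Neurog2 was at 489, 467 and 420 CPM in WT and 677, 637 and 614 in KO (log2 fold change 0.49 ± 0.10, edgeR adjusted p = 0.00209), and at -0.05 without the Prox1 or Tesc cells (edgeR adjusted p = 0.886). Neurog1 was at 2.27, 4.30 and 2.95 CPM in WT and 10.4, 11.4 and 7.92 in KO, and was detected in 3.41% of WT and 11.9% of KO cells without thinning (0.329% and 3.01% thinned). It rose by 1.58 ± 0.32 (edgeR adjusted p = 0.00184). Neurod4 was at 47.3, 45.1 and 39.5 CPM in WT and 29.8, 33.0 and 31.3 in KO (-0.49 ± 0.13, edgeR adjusted p = 0.00919), with Het embryo 4 at 52.3 CPM above every other embryo. Without the Prox1 or Tesc cells, the value was 0.58 for Neurog1 (edgeR adjusted p = 0.427) and -0.53 for Neurod4 (edgeR adjusted p = 0.182). In this class the detected share was higher without overlap in KO for 5 of the 9 genes (Eomes, Neurog1, Neurog2, Insm1 and Btbd17), beside 8.23% of tested genes, and lower for 1 (Neurod1), beside 16.0%.

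The SVZ-like class was also drawn in other ways, and the fold changes are of KO vs WT where no other comparison is named. At a clustering resolution of 0.8, the SVZ-like class held 2542 cells, of which 54.6% came from the class above and 41.9% from cluster 3. There Neurog1 (1.05) and Insm1 (0.55 ± 0.10) rose and Neurod4 fell (-0.97 ± 0.13), 3 of the 9 genes beside 14.4% of tested genes, whereas Eomes (0.16), Neurog2 (-0.04) and Neurod1 (0.13) did not pass. Eomes was detected in 81.6% of WT and 84.5% of KO cells of that class. In KO vs WT, Insm1 rose in each of the 5 drawings of the class that were run, Neurod4 was called lower in 4 of the 5, and the Neurod1 value was positive in the 3 that redrew the clusters. All drawings use the same embryos, and the prefix was fitted as a covariate only in the class as first drawn. In Het vs WT, Insm1 was called only in the class as first drawn. In the other drawings it was at 0.40, 0.41, 0.40 and 0.48 (edgeR adjusted p = 0.0677, 0.0687, 0.0730 and 0.180). Neurod4 was not called in any drawing in Het vs WT.

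**Figure D3:**
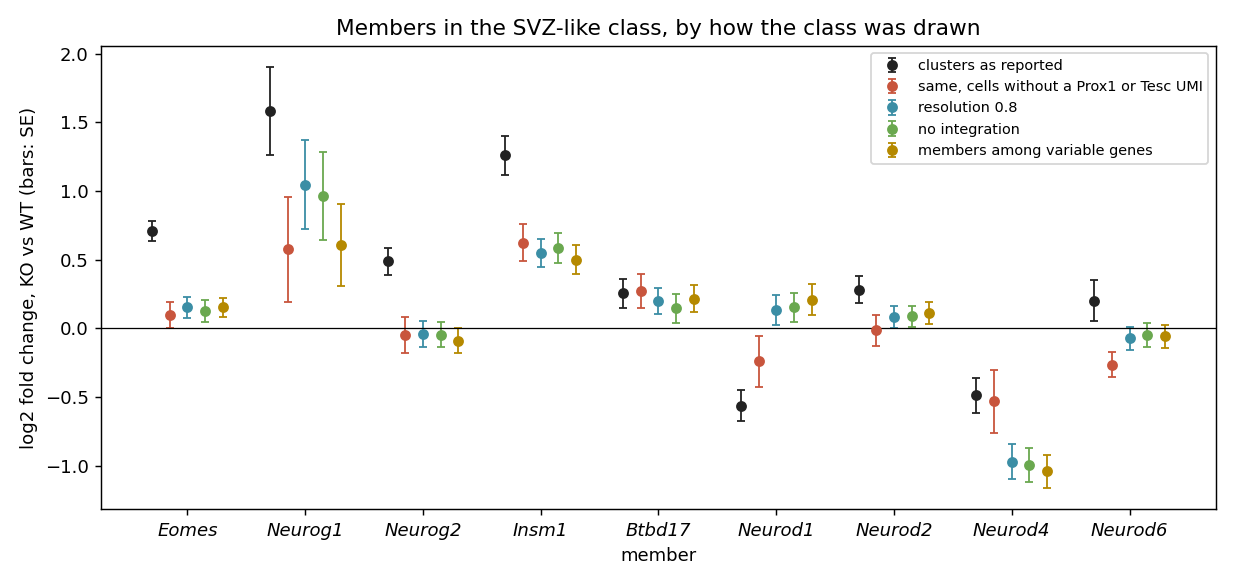
Points give the log2 fold change of each gene in KO vs WT (edgeR, bars are the SE) in the SVZ-like class as reported (black), in its cells without a Prox1 or Tesc UMI (red), and with clusters drawn at resolution 0.8 (blue), without integration (green) or with the 9 genes kept among the variable genes (gold). Insm1 stays above 0 in all 5, from 0.50 to 1.26, whereas Eomes goes from 0.71 to between 0.10 and 0.16 and Neurod1 changes sign.

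Cluster 3 (4932 cells) carried markers of both the subventricular zone and layers II-IV and was left unnamed. Of the 8 genes that passed the filter there, Insm1 and Neurod1 rose and Neurod4 fell in KO vs WT, beside 20.7% of tested genes. Neurod1 was at 324, 381 and 369 CPM in WT, 359, 405, 442 and 485 in Het and 564, 478 and 552 in KO. KO embryo 2 lay just below Het embryo 4, and all KO embryos lay above WT. Its log2 fold change was 0.57 ± 0.089 in KO vs WT (edgeR adjusted p = 0.000144). Its share of detected cells was 56.4% ± 5.02 in WT and 69.0% ± 2.27 in KO (unthinned 85.1% and 94.2%). Insm1 rose by 0.42 ± 0.082 (edgeR adjusted p = 0.000929), and its share went from 45.5% ± 3.05 to 57.0% ± 0.475 (unthinned 84.2% and 93.0%). Neurod4, detected in under 1% of these cells on average after thinning, fell by 1.36 ± 0.43 (edgeR adjusted p = 0.0257). With the prefix as a covariate Neurod1 was still called (0.84), Neurod6 (0.34) was called in addition, and Insm1 (0.070) and Neurod4 (-0.75) were not. Eomes was detected in 20.9% of WT and 21.4% of KO cells, with overlapping embryos. In Het vs WT 1 of the 8, Btbd17, rose (0.49 ± 0.10), beside 3.66%, and in KO vs Het 1 of 7, Neurod1, rose (0.40 ± 0.071), beside 4.51%. With the prefix as a covariate, Btbd17 in Het vs WT was at 0.46 and not called (edgeR adjusted p = 0.128). Neurod1 (0.44, edgeR adjusted p = 0.0340) was called there instead.

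In layer II-IV-like neurons, where 7 of the 9 genes passed the filter, 4 rose in KO vs WT (Neurod1, Insm1, Neurog2 and Neurod6) and none fell, beside 29.7% of tested genes. Neurod1 was at 67.3, 80.5 and 63.9 CPM in WT, 82.3, 81.3, 77.6 and 87.2 in Het and 131, 126 and 141 in KO. KO stood clear of the other groups, and Het embryo 4, within the prefix of WT, lay near the rest of Het. The log2 fold change was 0.91 ± 0.074 in KO vs WT (edgeR adjusted p = 2.04e-07) and 0.72 ± 0.051 in KO vs Het (edgeR adjusted p = 1.43e-07). Neurod1 was detected in 16.2% ± 1.09 of WT and 28.3% ± 1.43 of KO cells (unthinned 45.3% and 69.8%), and its UMIs per detected cell went from 1.38 to 1.55.

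Insm1 was at 87.8, 73.9 and 77.0 CPM in these neurons in WT, 127, 102, 104 and 94.3 in Het and 135, 154 and 151 in KO, with no overlap of the 3 groups. It rose by 0.88 ± 0.092 (log2) in KO vs WT (edgeR adjusted p = 2.46e-06), 0.42 ± 0.086 in Het vs WT (edgeR adjusted p = 0.00844) and 0.40 ± 0.073 in KO vs Het (edgeR adjusted p = 0.00114). The share of cells with Insm1 was 21.9% ± 2.09 in WT and 34.6% ± 1.37 in KO (unthinned 58.1% and 78.1%), and the level among them 1.29 and 1.48 UMIs. Neurog2 (0.49 ± 0.069) and Neurod6 (0.28 ± 0.063) rose less. All 4 calls of KO vs WT in this class held with the prefix as a covariate, and that of Insm1 in Het vs WT did not (0.24, edgeR adjusted p = 0.380). Insm1 was the 1 gene of the 7 called in Het vs WT, beside 6.37%, and Neurod1, Insm1 and Neurog2 (0.28) were the 3 called in KO vs Het, beside 12.6%.

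Progenitor classes showed Insm1 higher and single genes lower. In radial glia-like cells Insm1 rose by 0.81 ± 0.17 (edgeR adjusted p = 0.00315) and Btbd17 fell by 0.76 ± 0.17 (edgeR adjusted p = 0.00592), 2 of 8 genes beside 19.5%. Btbd17 was at 29.2, 34.2 and 45.5 CPM in WT and 19.4, 29.9 and 18.6 in KO, where KO embryo 2 exceeded the lowest WT embryo, and its detected share went from 9.07% ± 0.746 to 3.98% ± 2.08 (unthinned 29.0% and 23.7%). In mitotic-like cells Insm1 rose by 0.53 ± 0.13 (edgeR adjusted p = 0.0264) and Neurod4 fell by 1.61 ± 0.42 (edgeR adjusted p = 0.0344), 2 of 9 genes beside 6.69%. Neurod4 was there at 23.9, 25.4 and 11.8 CPM in WT and at 5.90, 1.73 and 12.4 in KO, so that the highest KO embryo overlapped the lowest WT embryo. The leading gene of the mitotic-like cluster was Ttr, a choroid plexus gene, followed by genes of mitosis, and its score for the choroid plexus list (3.66) exceeded that for the mitotic list (2.75). Its median UMIs per cell ran from 7131.5 to 9784 in WT and from 11907.5 to 14998.5 in KO embryos, whose part in these values was not tested. With the prefix as a covariate none of the 4 calls in radial glia-like and mitotic-like cells held, although their values did not move alike. Btbd17 in radial glia-like cells was at -0.84 (edgeR adjusted p = 0.136) and Neurod4 in mitotic-like cells at -2.32 (edgeR adjusted p = 0.366), no smaller than before, while Insm1 went to 0.49 in radial glia-like cells and to 0.0029 in mitotic-like cells.

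Deep-layer and inhibitory classes were also read. In layer V-VI-like neurons 1 of 7 genes was called in KO vs WT, Insm1 (0.46 ± 0.099, edgeR adjusted p = 0.00300), beside 24.4%, and it was not called with the prefix as a covariate (0.14). Layer I-like neurons had 2 of 7 in KO vs WT, Neurod1 (1.74) and Insm1 (1.35), beside 5.52%. In KO vs Het they had 3 of 7, Neurod1 (1.13), Neurod6 (0.96) and Neurod2 (0.69), beside 1.16%. The layer I-like class held 48 to 65 cells per KO embryo and 86 to 108 per WT embryo. After thinning, it held 0 to 0.384% of the Neurod1-detected cells of WT embryos and 0.401 to 0.917% of those of KO. For Insm1 the ranges were 0.091 to 0.338% and 0.0708 to 0.388%, so the layer I-like values of both genes rest on few cells. In cluster 5, 1 of 7 was called, Neurod1 (0.83 ± 0.13), beside 8.38%. In KO vs Het, 0 of 7 were called in layer V-VI-like neurons and 0 of 7 in cluster 5. The prefix was not fitted as a covariate in layer I-like neurons or in cluster 5.

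Striatal inhibitory-like neurons had 3 of 7 genes called in KO vs WT, beside 16.6%, and the same 3 in Het vs WT, beside 2.70%. In KO vs Het, 0 of 5 were called, and the prefix was not fitted as a covariate in this class. Insm1 was at 46.1, 51.7 and 38.9 CPM in WT, 90.9, 80.7, 81.4 and 53.2 in Het embryos 1 to 4, and 90.3, 90.8 and 88.6 in KO, and rose by 0.98 ± 0.14 in KO (edgeR adjusted p = 0.000214). Het embryo 4 was closer to WT than to the other Het embryos, so the 6 libraries of the second prefix lay together here. Neurod6 fell by 0.97 ± 0.17 and Neurod2 by 0.70 ± 0.15 in KO vs WT. Both are pyramidal neuron genes, and their shares in this class (17.6% and 8.36% for Neurod6 in WT and KO) moved with those in erythroid-like cells (13.8% and 5.81%), whose part in the result was not tested.

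**Figure D4:**
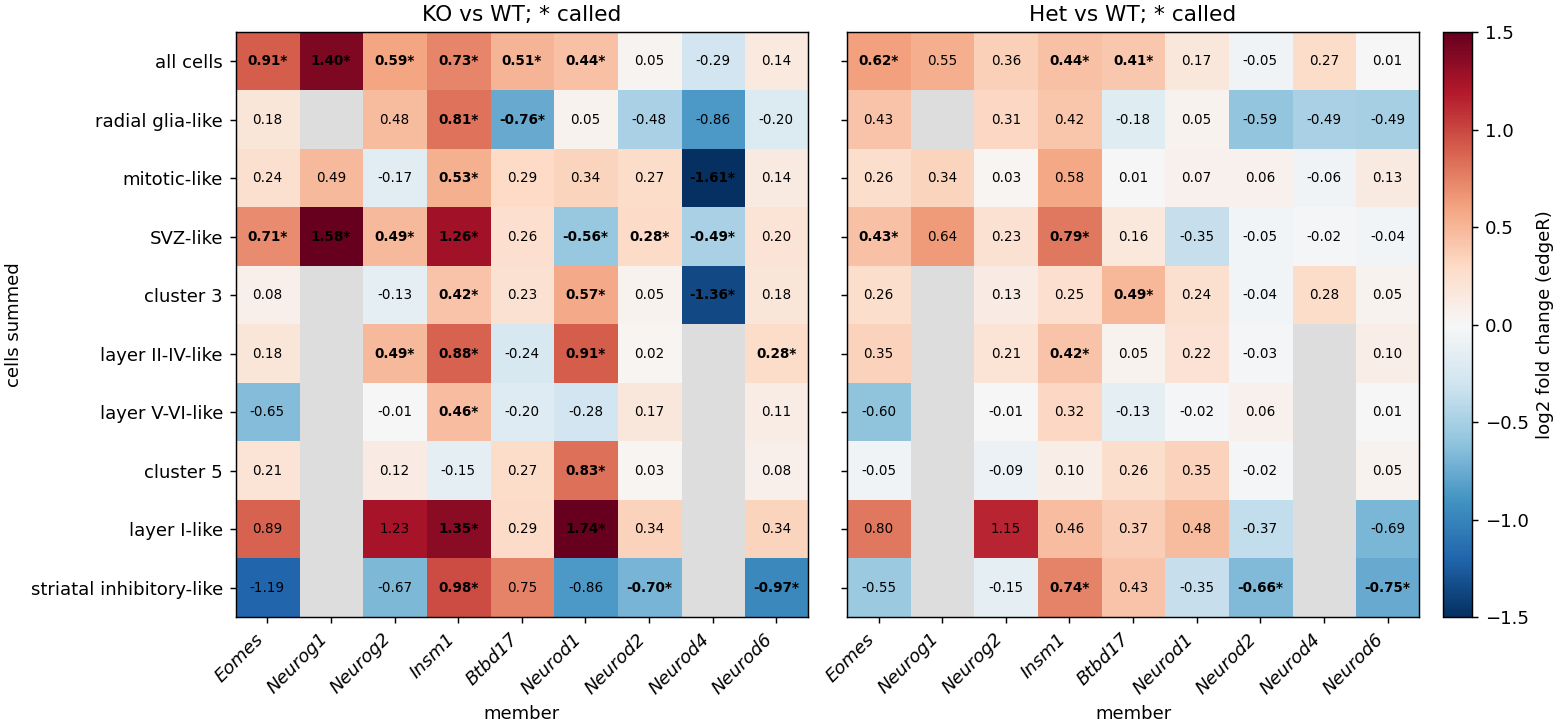
Colors and numbers give the log2 fold change (edgeR) of each gene (columns) over all cells and in 9 classes, KO vs WT at the left and Het vs WT at the right, with an asterisk for a call and grey where the gene did not pass the filter. In KO vs WT Insm1 is called in every line but cluster 5, and Neurod1 is 0.91 in layer II-IV-like and -0.56 in SVZ-like cells.

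The difference between classes was tested for the genes with an interaction term in edgeR. The KO vs WT log2 fold change of Neurod1 was larger in layer II-IV-like than in SVZ-like cells by 1.45 ± 0.11 (edgeR adjusted p = 8.20e-09) and larger in cluster 3 than in SVZ-like cells by 1.13 ± 0.069 (edgeR adjusted p = 2.72e-10). Both rest on the drawing of the SVZ-like class in which Neurod1 stood at -0.56, and the interaction was not fitted for the redrawn classes, where it stood at 0.13 to 0.21. Against the SVZ-like cells without a Prox1 or Tesc UMI, these differences were 1.13 (edgeR adjusted p = 1.84e-06) and 0.82 (edgeR adjusted p = 0.000747). Those of Insm1, Eomes and Neurog2 between cluster 3 and SVZ-like cells, -0.85, -0.62 and -0.62, were called with all SVZ-like cells and not called, at -0.23, -0.04 and -0.12, without the Prox1 or Tesc cells. Without those cells, Neurog2 (0.48 in layer II-IV-like minus SVZ-like cells) and Neurod6 (0.50, and 0.43 in cluster 3 minus SVZ-like cells) were called and had not been before.

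**Figure D5:**
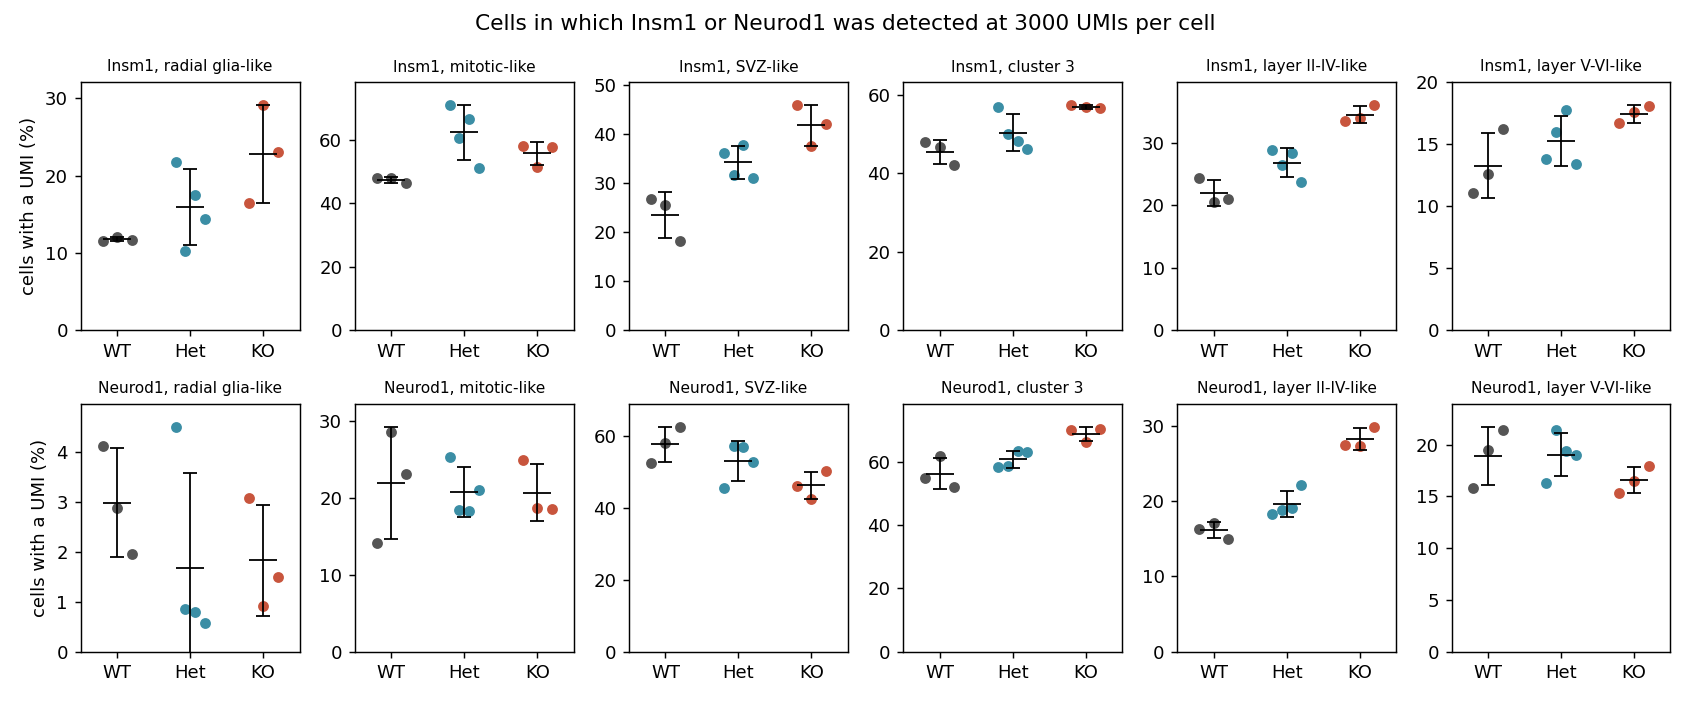
Points give, per embryo, the percent of cells with at least 1 UMI of Insm1 (top) or Neurod1 (bottom) at 3000 UMIs per cell in 6 classes, with the group mean and SD. Insm1 lies above all WT embryos in every KO embryo of each class, and Neurod1 does so in cluster 3 and layer II-IV-like cells, while in SVZ-like cells the KO embryos lie below WT.

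Genes whose levels followed each of the 9 most closely across 16 classes in the 3 WT embryos (48 points that share embryos and depth, Pearson correlation of log2 CPM) are given as a description. Eomes and Neurog2 were followed by Celsr1 (0.88 for both), Insm1 by Pantr1 (0.92) and Pou3f2 (0.90), Btbd17 by Thrsp (0.87), Neurod1 by Emx1 (0.94), Neurod4 by Them5 (0.85) and Mfap4 (0.83), and Neurod2 and Neurod6 by Zbtb18 (0.95 for both). For Neurog1 the closest were Gm11412, Pdlim3 and Gm5089, the latter 2 at 0.77.

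Other genes of the pathway were counted from lists. These lists were chosen with earlier results of these data known, so their counts are a description. The shares of all tested genes set beside them count calls in both directions. Of 12 intermediate progenitor and neurogenic target genes, 11 rose in KO vs WT over all cells, beside 24.5% of all tested genes called (median 0.61, against -0.01 for all genes). In Het vs WT 6 rose, beside 2.98%, and in KO vs Het 8, beside 6.14%. Gadd45g (1.25), Rhbdl3 (1.18), Nhlh1 (1.15), Mfng (1.08) and the cytoskeletal regulator Rnd2 (0.95) rose the most, and Bhlhe22 (0.08) did not pass. In SVZ-like cells, where 25.1% of tested genes were called, 7 of the 12 rose, among them Gadd45g (1.25), Lzts1 (0.74) and Rnd2 (0.55), and 1 fell, Bhlhe22 (-1.29), which encodes a neuronal bHLH factor. Of these 12 genes, 7 are also markers by which the SVZ-like class was named.

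The other lists hold few genes, and their counts stand beside the same 24.5% over all cells and 25.1% in SVZ-like cells. Of the 3 E proteins, the partners of the bHLH factors, Tcf3 rose over all cells (0.33), and Tcf3 (0.46) and Tcf12 (0.45) rose in SVZ-like cells. Of the 4 Id inhibitors, Id2 (0.32) and Id4 (0.38) rose and Id1 (-0.48) fell over all cells, while Id1 (-1.02) and Id3 (-1.82) fell in SVZ-like cells. Of 5 Notch ligands and Hes factors, the ligand Dll1 (0.69) and Hes6 (0.36) rose over all cells. In SVZ-like cells Dll1 (1.21), Dll3 (0.43) and Hes6 (0.75) rose and the Notch target Hes5 (-1.11) fell. These SVZ-like values rest on the class that also differed in its Prox1 and Tesc cells, and they were not computed without those cells.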

How the data were processed

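Droplet 3′ libraries of 10 E16.5 cortices were sequenced, and the deposited matrices hold UMI counts per gene and cell that the authors made with Cell Ranger against mm10, not normalized. The submitters' processing notes give Cell Ranger 6.0.2, a later version than the study's methods name, and every matrix was assigned to an embryo (0 unassigned). The filter on cells (1000 UMIs or more, no more than 10% mitochondrial) was the study's. Doublets were scored with Scrublet, and the highest-scoring cells were marked at a rate set in advance from the number of barcodes. This marked 4.80 to 8.31% of cells per embryo, whereas the automatic threshold of Scrublet gave 0.0341 to 2.53%. Marked cells were kept except in an alternative. Cells were integrated and clustered with Seurat 5.3.0 (2000 variable genes without the 9 genes, 30 components, resolution 0.4) and clusters named from marker lists. Naming thresholds were set after the clusters were seen. Counts were summed per embryo and class with at least 20 cells per embryo and tested with edgeR 4.0.16 in R 4.3.3 (filterByExpr, TMM, quasi-likelihood F-test, 10 embryos in 1 fit, KO vs Het in 6), with Benjamini-Hochberg adjustment over all genes tested. The tests were tested on simulated data. In SVZ-like cells they recovered 29% of simulated log2 changes of 0.5 and 87% of those of 1 in KO vs WT. In Het vs WT they recovered 37% of those of 0.5 there. Over all cells, 58% and 71% were recovered in KO vs WT, for 0.5 and 1. Each size of change was given to 100 genes, of 11731 in SVZ-like cells and 17647 over all cells. That was far fewer than the genes called in KO vs WT in the data, so these rates may not hold there. A gene that was not called may still differ. CPM values are TMM-normalized, and log2 CPM used an offset of 1. Shares were read after thinning to 3000 UMIs (6000 as an alternative) in Python 3.11.15 with scanpy 1.11.5, and single values were tested by exact permutation over embryos. Same-number embryos did not pair (9 correlations, -0.185 to 0.125). The named genes are the 9 genes, Gatad2b and called genes of 5 lists, of which 1 list holds a gene that is not reported here and is left out. The genes and lists were chosen with earlier results of these data known, and the alternative without Prox1 or Tesc cells was chosen after seeing the data. Prox1, Tesc, the leading genes of the SVZ-like class and the genes of most similar pattern were named after their values were seen. The study's single-cell test takes cells as replicates and was not used.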

Additional observations from a re-analysis of the deposited data

Results flagged for a closer look

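Neurod4 in the library of Het embryo 4 stood apart from the other Het embryos in SVZ-like cells, at 52.3 CPM against 38.5 to 40.3, by Dixon's test at the 95% level, which chance passes in about 1 in 20 groups. The test was applied to every gene of the set, over all cells and in SVZ-like cells, so a single pass can come by chance.

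The other results listed are differences between classes in the effect of genotype, each tested with an interaction term in edgeR. In KO vs WT, the log2 fold change in layer II-IV-like minus that in SVZ-like cells was 1.45 for Neurod1, -0.41 for Insm1 and -0.28 for Neurod2, and in Het vs WT it was 0.56 for Neurod1. In cluster 3 minus SVZ-like cells it was 1.13 for Neurod1, -0.85 for Insm1, -0.62 for Neurog2, -0.62 for Eomes and -0.24 for Neurod2 in KO vs WT, and 0.58 for Neurod1 and -0.55 for Insm1 in Het vs WT. In radial glia-like minus SVZ-like cells it was -1.01 for Btbd17 in KO vs WT. Against SVZ-like cells without a Prox1 or Tesc UMI, the KO differences of Neurod1 were 1.13 and 0.82 and still called, and those of Insm1, Eomes and Neurod2 were not called. The Het differences were not called there either, at 0.39 and 0.42 for Neurod1 in layer II-IV-like cells and cluster 3 (edgeR adjusted p = 0.528 and 0.548) and -0.25 for Insm1 in cluster 3 (edgeR adjusted p = 0.916).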

How the results depend on the processing

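Counts are of the 9 genes called by edgeR. In KO vs WT over all cells 6 were called, 3 with the library prefix as a covariate, and 6 to 6 when 1 embryo was left out. In KO vs WT SVZ-like cells 7 were called, against 3 at resolution 0.8, 3 without integration, 4 with the prefix, 2 with the 9 genes kept among the variable genes, 1 without Prox1 or Tesc cells, and 6 to 8 when 1 embryo was left out. There Neurog2 turned to -0.043, -0.047, -0.089 and -0.049, Neurod1 to 0.13, 0.15 and 0.21, and Neurod2 to -0.015 (log2). Over 5 further classes, 12 calls in KO vs WT stood beside 6 with the prefix (5 of the 12, and Neurod6 in cluster 3) and 9 to 14 when 1 embryo was left out. In Het vs WT over all cells 3 became 0 with the prefix (where 1913 of 17647 genes had an unadjusted p under 0.05) and 0 with WT and Het alone (4385 of 17394), and 0 to 3 when 1 embryo was left out. It was 0 without WT embryo 1 or 2, Het embryo 1 or 3, or KO embryo 1 or 3, and 1 without WT embryo 3 or Het embryo 2. DESeq2 called 4 over all cells and 3 in SVZ-like cells in Het vs WT. In Het vs WT SVZ-like cells 2 became 0 at resolution 0.8 (1647 genes at an unadjusted p under 0.05), without integration (1713), with the 9 genes kept (1745) and without Prox1 or Tesc cells (970), 1 with the prefix (Neurog2, not among the 2), and 2 to 3 when 1 embryo was left out. The 2 calls of Het vs WT in the further classes, both lost with the prefix while Neurod1 in cluster 3 and Neurod6 in layer II-IV-like cells were called, became 4 with DESeq2, 4 without doublets, 11 without the filter on low counts, and 0 to 6 when 1 embryo was left out. With the prefix, the log2 fold changes of the lost calls were 0.46 for Btbd17 in cluster 3 and 0.24 for Insm1 in layer II-IV-like cells. The 2 calls of KO vs Het became 1 at 5% mitochondrial UMIs, 1 without doublets, and 0 to 5 when 1 embryo was left out. A replicate block gave 6, 8, 13, 3, 2 and 3 calls for these comparisons, and 6 in the further classes of Het vs WT, with numbers that do not pair the embryos. The Eomes share differed by 1.44 to 3.13 points in KO and 1.28 to 1.96 in Het under the other settings, and by 2.02 to 3.22 and 0.954 to 1.80 when 1 embryo was left out. The cause of these moves was not tested. Depth limits Neurog1 and Neurod4, which are seen as single UMIs in most cells.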
